A study of Mus musculus with 12 samples.

Results

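The complement genes of the gonad were described across 5 groups of mouse gonads. They were chosen by name: C1qa, C1qb, C1qc, C3, C4b, C6, C7, Cfb and Clu, by symbol and not by a threshold on measured values. Earlier results of these data were known when the list was chosen. Of these 9 genes, 8 were matched in the adult table among 19938 genes, and 6 in the newborn table among 18194 genes. C3 was matched in neither table and is not analysed here. In the newborn table C7 was not matched either, and C4b shares its probe set with C4a, so that probe set was not used.

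The arrays measured RNA of whole ovaries, single or pooled, or of 0.25 of a testis, labelled with biotin. The adult groups, at 8 weeks, were 2 wild-type ovaries, 3 ovaries labelled Foxl2 flox/flox x CreEBD (called mutant ovaries here) and 3 wild-type testes, each organ from a single perfused animal. The newborn groups, at postnatal day 3 (P3), were 2 wild-type and 2 Foxl2 KO (knockout) samples, each made of ovaries of more than 10 females that were not perfused. Foxl2 is a forkhead transcription factor of granulosa cells, the somatic cells around the oocyte. The labels state neither when the floxed gene was deleted nor whether the wild-type adults carried Cre or received the same treatment, and they name no strain.

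Complement is a cascade of plasma and tissue proteins that marks particles and cells for uptake and can open pores in membranes. C1q, built of the chains encoded by C1qa, C1qb and C1qc, starts the classical pathway, which cleaves C4 and C2, while factor B serves the alternative pathway. Both lead to cleavage of C3 and then to the terminal components, of which C6 and C7 are early members of the membrane attack complex. Clusterin, the product of Clu, binds terminal complexes and is a secreted chaperone abundant in Sertoli cells, which nurse the germ cells of the testis. Most complement of the plasma is made in the liver, whereas C1q is made mainly by macrophages and dendritic cells.

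Adult values are log2 levels made with RMA, and P3 values are linear MAS5 signals from another platform, so levels are compared within a gene and within a table. The arrays had medians of 4.83 to 4.94 in the adult table and 116.6 to 126.8 at P3. Foxl2 lay at 8.75 and 8.81 in the wild-type ovaries, at 5.73 to 6.04 in the mutant ovaries and at 5.22 to 5.38 in the testes. At P3 it read 814.5 and 829.9 in wild-type pools against 186.4 and 153.7 in the KO pools. The mean log2 level of 7 oocyte markers was 5.67 to 7.59 in the ovaries and 3.82 to 4.00 in the testes. That of 6 spermatid markers was 3.79 to 4.13 in the ovaries and 11.06 to 11.16 in the testes. The 2 wild-type ovaries stood apart from each other: the oocyte mean was 7.59 in ovary 1 and 5.67 in ovary 2, and the mean of 3 measured corpus luteum markers was 8.53 and 10.53. The number of arrays limits the precision of every value.

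Among the 8 genes of the adult table, Clu and C7 rose in the mutant ovaries, and neither they nor any other member fell. Clu was 2.04-fold higher than in wild-type ovaries and C7 5.44-fold higher, although the C7 value rests on 2 wild-type ovaries that differed from each other 5.87-fold. The C1q chains and C4b were also higher in every mutant ovary than in both wild-type ovaries, by 1.5- to 2.40-fold, and did not pass the test. In testis the C1q chains, Cfb and Clu were lower than in wild-type ovary, and C7 was higher. No member passed the test at P3.

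**Figure D1:**
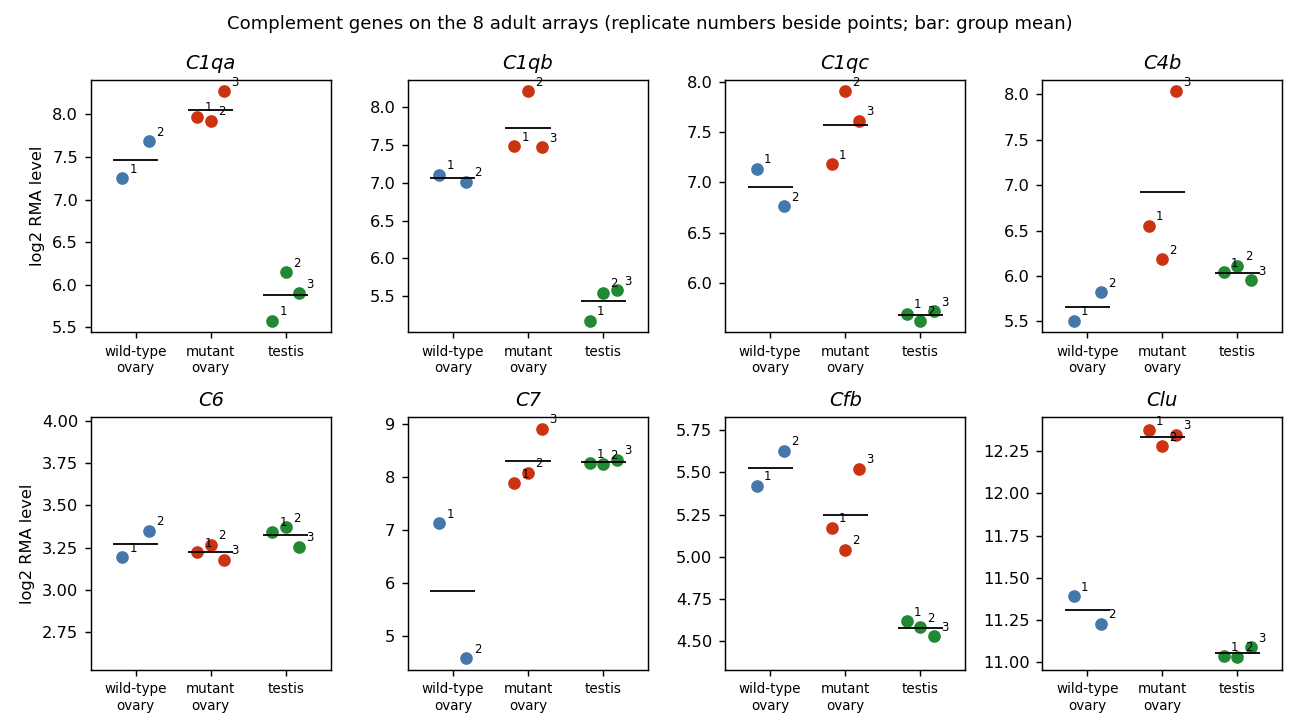
Log2 RMA level (vertical axis, own scale per panel) of the 8 measured complement genes on each adult array, with the replicate number beside each point and a bar at the group mean. Clu is higher in the 3 mutant ovaries (12.28 to 12.38) than on any other array (11.03 to 11.39), and C7 is lowest in wild-type ovary 2 (4.58).

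A gene was called at a limma adjusted p under 0.05, with Benjamini-Hochberg adjustment over all genes of the table. In mutant against wild-type ovaries 2 of 8 members rose and 0 fell, while 16.2% of all genes were called, 9.55% as higher and 6.66% as lower. With quantile normalization all genes split into 1698 higher and 1703 lower, against 1905 and 1327 here. In testis against wild-type ovary 1 member was higher and 5 were lower, while 60.3% of all genes were called, 24.4% as higher and 35.9% as lower. The groups did not overlap in 2 members with testis higher and 5 with testis lower, beside 73.8% of all genes (28.5% and 45.4%). In mutant ovary against testis 5 members were higher and 0 lower, while 61.8% of all genes were called, 37.5% as higher and 24.3% as lower. The groups did not overlap in 6 members, each higher in the mutant ovaries, beside 69.5% of all genes (42.8% higher, 26.7% lower). The medians of the 8 members were 0.64, -0.60 and 1.09 on the log2 scale in these 3 comparisons, beside -0.02, -0.15 and 0.14 for all genes. The first 2 comparisons share the wild-type ovaries, and the mutant ovaries and testes each enter 2 comparisons. In whole organs, fewer cells of a type and less RNA per cell cannot be told apart.

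**Figure D2:**
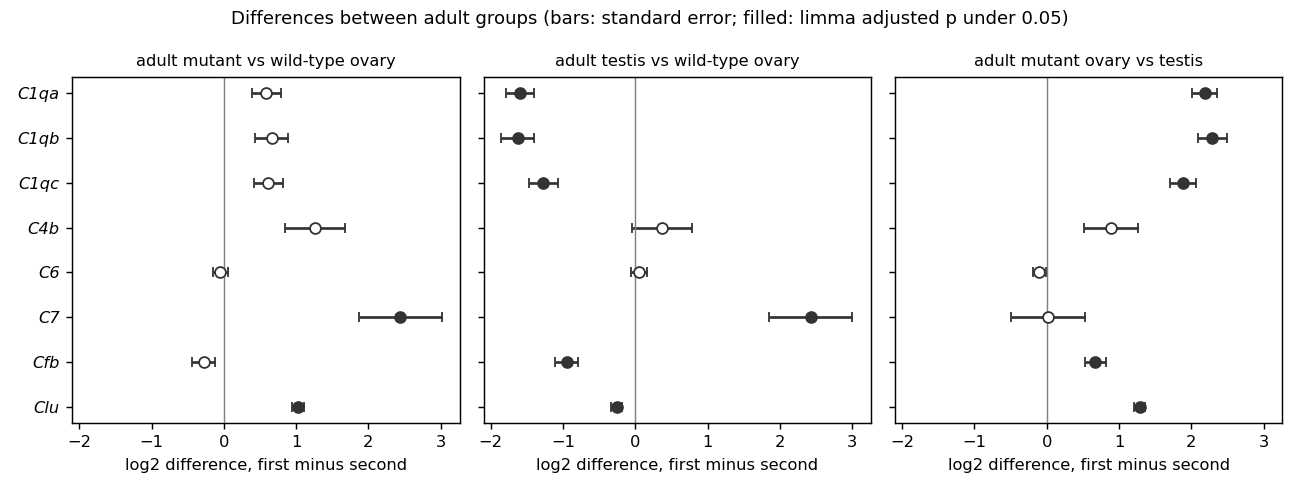
Log2 differences (horizontal axis) of the 8 complement genes in the 3 adult comparisons, with standard errors as bars and filled points where the limma adjusted p is under 0.05. C1qa, C1qb and C1qc are lower in testis than in wild-type ovary and higher in mutant ovary than in testis, while C7 differs by 0.02 between mutant ovary and testis.

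The C1q chains are encoded by neighbouring genes on mouse chromosome 4, with 0 other genes between them in the RefSeq table of assembly GRCm38.p6. They were measured separately, and their levels followed the same order of groups: mutant ovary, wild-type ovary, testis. C1qa (probe set 10517517) was at 7.25 and 7.69 in the wild-type ovaries, 7.97, 7.93 and 8.27 in the mutant ovaries, and 5.57, 6.15 and 5.90 in the testes. Its groups did not overlap in any adult comparison, and neither did those of C1qb or C1qc. C1qb (probe set 10517508) was at 7.10 and 7.01 in the wild-type ovaries, 7.49, 8.21 and 7.47 in the mutant ovaries, and 5.17, 5.55 and 5.58 in the testes. Mutant ovary 2 was the highest array. C1qc (probe set 10517513) was at 7.14 and 6.76 in the wild-type ovaries, 7.18, 7.90 and 7.61 in the mutant ovaries, and 5.70, 5.62 and 5.72 in the testes. Here mutant ovary 1 lay just above wild-type ovary 1.

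In mutant against wild-type ovaries C1qa differed by 0.59 ± 0.20 (SE, n = 3 and 2, limma adjusted p = 0.0724), C1qb by 0.66 ± 0.22 (adjusted p = 0.0754) and C1qc by 0.62 ± 0.20 (adjusted p = 0.0654). None of these passed. Some settings gave a call: C1qa passed without wild-type ovary 2 (0.81, limma adjusted p = 0.0287), and C1qc without wild-type ovary 1 (0.80, adjusted p = 0.034) or without mutant ovary 1 (0.81, adjusted p = 0.0144). With all arrays kept, C1qc also passed when low genes were left out (limma adjusted p = 0.0465). In all, 6 of the 8 members had groups that did not overlap, each higher in the mutant ovaries, beside 39.9% of all genes in either direction, 19.3% with the mutant higher and 20.6% lower.

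The C1q chains were lower in testis than in wild-type ovary, C1qa by a difference of -1.60 ± 0.20 (SE, n = 3 and 2, limma adjusted p = 4.09e-05), C1qb by -1.63 ± 0.22 (adjusted p = 9.44e-05) and C1qc by -1.27 ± 0.20 (adjusted p = 2.51e-04). Against testis the mutant ovaries were higher by 2.18 ± 0.18, 2.29 ± 0.20 and 1.89 ± 0.18 (SE, n = 3 and 3, limma adjusted p = 1.16e-06, 2.24e-06 and 4.23e-06). These 6 calls were kept without each testis in turn, and those of mutant ovary against testis also without each mutant ovary. For C1qa, C1qb and C1qc, testis minus wild-type ovary was -1.82, -1.58 and -1.08 without wild-type ovary 1. Without wild-type ovary 2 it was -1.37, -1.67 and -1.46.

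Macrophage markers were followed beside C1q, since macrophages are its main source. Of 14 markers 4 rose in the mutant ovaries, Mpeg1 by 1.08, Cd14 by 0.90, Adgre1 (the F4/80 antigen) by 0.73 and Aif1 by 0.51, beside 9.55% of all genes higher. Cd163, a scavenger receptor, fell by 0.53, beside 6.66% lower. The calls of Mpeg1, Cd14 and Adgre1 were kept without each ovary in turn and when the testes were not fitted. The Aif1 call was lost when the testes were not fitted, and without either wild-type ovary or mutant ovary 2 or 3. The Cd163 call was lost when the testes were not fitted, and without wild-type ovary 2 or mutant ovary 1 or 2. The other 9 did not pass, and 13 of the 14 differences were positive, with a median of 0.48. The mean level of the 14 markers was 5.88 in each wild-type ovary, while mutant ovaries 1 to 3 had 6.14, 6.61 and 6.36. Mutant ovary 2 was thus highest, as it was for C1qb and C1qc. For C1qa it was the lowest mutant ovary (7.93, against 7.97 and 8.27). The summed linear level of the 14 markers was 1144 to 1175 in wild-type and 1453 to 2251 in mutant ovaries. Between 4 and 6 of the 14 lay at or under the median of all genes in each ovary. In testis 10 of the 14 were lower than in wild-type ovary and 2 were higher, Aif1 by 5.44 and Mrc1, the mannose receptor, by 1.06, beside 35.9% of all genes lower and 24.4% higher. The mean level was 5.45 in each testis, below the ovaries, while the summed level was 1311 to 1341, above the wild-type ovaries. Aif1, at 9.59 to 9.63 in the testes, made up 58.7% to 59.1% of that sum. The leukocyte gene Cd74, of antigen presentation, rose by 1.53 in the mutant ovaries and Coro1a by 0.53, 2 of 7 measured leukocyte markers. The Cd74 call was kept without each ovary in turn, and among these fits that of Coro1a was kept only without mutant ovary 1. The part of these cells in the C1q values was not tested.

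**Figure D3:**
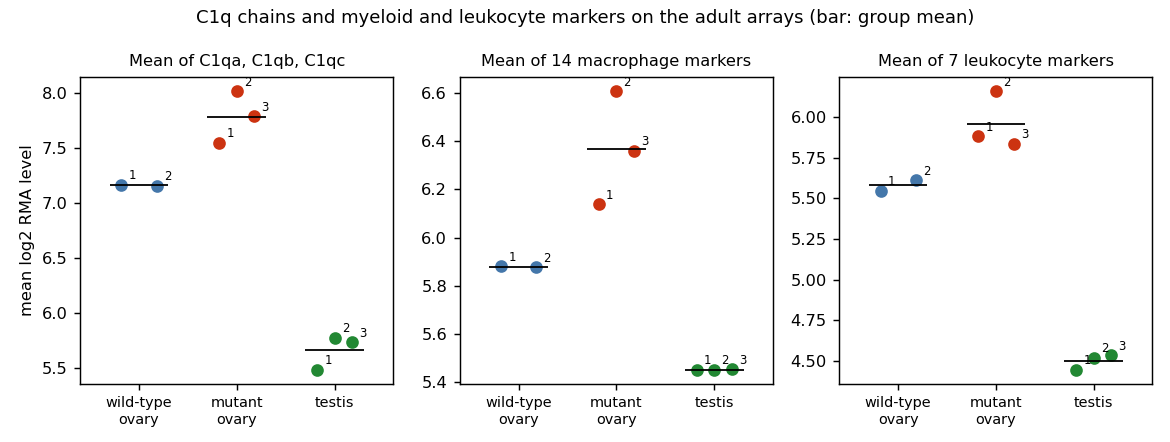
Mean log2 RMA level (vertical axis) of the 3 C1q genes, of 14 macrophage markers and of 7 leukocyte markers on each adult array, with replicate numbers and group means. The C1q mean is 7.16 on both wild-type ovaries, 7.55 to 8.01 on the mutant ovaries and 5.48 to 5.77 on the testes, and mutant ovary 2 is highest in each panel. C1qa taken alone is highest on mutant ovary 3 (8.27).

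The sequences around the start sites of C1qb and C1qc, as genes whose levels moved together, and of C7, as the member with the widest spread, were taken from RefSeq (GRCm38.p6). Each runs from 250 bases before to 50 bases after the start, 5′ to 3′ on the minus strand of the genome, at chr4:136886151-136886450, chr4:136892865-136893164 and chr15:5063724-5064023. Capitals mark an ETS-family core, GGAAGT or its reverse ACTTCC, the kind of site bound by the myeloid factor PU.1.
C1qb: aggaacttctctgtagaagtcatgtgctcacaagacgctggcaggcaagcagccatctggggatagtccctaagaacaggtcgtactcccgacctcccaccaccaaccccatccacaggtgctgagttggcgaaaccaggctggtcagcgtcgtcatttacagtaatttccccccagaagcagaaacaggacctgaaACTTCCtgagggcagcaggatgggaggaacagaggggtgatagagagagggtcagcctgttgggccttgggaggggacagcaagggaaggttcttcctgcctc
C1qc: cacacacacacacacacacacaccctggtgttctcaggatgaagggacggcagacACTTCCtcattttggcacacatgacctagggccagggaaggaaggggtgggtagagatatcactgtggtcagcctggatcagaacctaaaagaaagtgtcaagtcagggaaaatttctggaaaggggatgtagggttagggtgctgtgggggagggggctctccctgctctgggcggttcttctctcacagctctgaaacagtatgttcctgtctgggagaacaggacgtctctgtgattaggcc
C7: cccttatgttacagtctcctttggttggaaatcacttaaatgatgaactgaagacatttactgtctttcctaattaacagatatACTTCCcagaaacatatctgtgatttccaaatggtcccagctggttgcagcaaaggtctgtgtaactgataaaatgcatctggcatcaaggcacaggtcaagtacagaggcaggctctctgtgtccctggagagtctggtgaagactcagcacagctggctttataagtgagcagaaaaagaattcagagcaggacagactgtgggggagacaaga
The core occurs once in each, starting at -53, -195 and -166 from the start site, and is held by 23.8% of all 32851 windows of this length. A forkhead core, TGTTTAC or GTAAACA, was in none of the 3 windows and in 3.65% of all. An Nr5a core, CAAGGTCA or TGACCTTG, was in none of them either and in 1.56% of all. The C3 and C6 windows held none of these 3 cores, and entries for the other members were not matched. A match is a description of letters and not of binding.

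C4b encodes complement C4, which C1-bound proteases cleave next. C4b (probe set 10450242) was at 5.51 and 5.82 in the wild-type ovaries, 6.55, 6.19 and 8.03 in the mutant ovaries, and 6.04, 6.11 and 5.95 in the testes. Mutant ovary 3 stood 1.48 above the next mutant ovary, and the mutant group had an SD of 0.98 against 0.22 in wild-type ovaries and 0.08 in testes. Mutant minus wild-type gave 1.26 ± 0.42 (SE, n = 3 and 2, limma adjusted p = 0.07) and did not pass. Without mutant ovary 3 it was 0.71 and passed (limma adjusted p = 0.0307), and without mutant ovary 2 it was 1.63 and passed (adjusted p = 0.0236). Against testis the mutant ovaries differed by 0.89 ± 0.38 (n = 3 and 3, limma adjusted p = 0.062), by 0.34 without mutant ovary 3, and by 1.26 without mutant ovary 2, which passed (adjusted p = 0.0125). With the replicate number as a block and all arrays kept, the comparison with testis passed (limma adjusted p = 0.0457).

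C4a, the close relative of C4b, showed the same array on top: 5.17 and 5.20 in wild-type ovaries, 5.67, 5.06 and 6.09 in mutant ovaries and 5.35 to 5.47 in testes. Probes of the 2 genes may bind both transcripts, so the split between C4a and C4b is uncertain. C4b, Cyp21a1 and C4a are in this order on chromosome 17, counting protein-coding genes. Cyp21a1, a steroid hydroxylase gene, was the gene most like C4b over the 8 adult arrays (Pearson r = 0.96). In mutant ovary 3 the mean of 5 surface epithelium and mesothelium markers was 9.0, against 8.04 and 8.36 in the other mutant ovaries and 7.76 and 8.13 in the wild-type ovaries. In the testes, where C4b was at 5.95 to 6.11, this mean was 4.18 to 4.27. Among the mutant ovaries, ovary 3 also had the highest means of Leydig (7.66), smooth muscle (7.64) and stroma markers (9.78). In wild-type ovaries 1 and 2, where C4b was lower, the Leydig mean was 6.44 and 5.85. The smooth muscle mean there was 8.73 and 8.46, above every mutant ovary, and the stroma mean was 9.83 and 9.53. The part of any of these cells in the C4b values was not tested.

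Cfb encodes factor B, the protease of the alternative pathway convertase. Cfb (probe set 10450325) was at 5.42 and 5.63 in the wild-type ovaries, 5.17, 5.04 and 5.52 in the mutant ovaries, and 4.62, 4.58 and 4.53 in the testes. Wild-type and mutant ovaries overlapped, and every testis lay below every ovary. Testis was lower than wild-type ovary by a difference of -0.95 ± 0.16 (SE, n = 3 and 2, limma adjusted p = 4.13e-04) and mutant ovary was higher than testis by 0.67 ± 0.14 (n = 3 and 3, adjusted p = 0.00192). Mutant differed from wild-type ovary by -0.28 ± 0.16 (limma adjusted p = 0.292).

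The terminal components gave the flattest and the most variable member. C6 (probe set 10422635) lay between 3.18 and 3.37 on all 8 adult arrays, under the array medians, and its differences were -0.05, 0.05 and -0.10 with adjusted p values of 0.379 or more (limma). At this level a difference between groups was not detectable. C7 (probe set 10427436) was at 7.13 and 4.58 in wild-type ovaries 1 and 2, while the mutant ovaries had 7.89, 8.08 and 8.92 and the testes 8.26, 8.25 and 8.34. Both wild-type ovaries lay below every other array, ovary 2 far below.

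C7 rose in the mutant ovaries by 2.44 ± 0.58 (SE, n = 3 and 2, limma adjusted p = 0.0162) and was higher in testis than in wild-type ovary by 2.43 ± 0.58 (n = 3 and 2, adjusted p = 0.00388). Without wild-type ovary 2 these differences were 1.17 (limma adjusted p = 0.024) and 1.149 (adjusted p = 0.00694). Without wild-type ovary 1 they were 3.72 and 3.70 (limma adjusted p = 1.26e-05 and 1.22e-06). Both comparisons share these 2 ovaries. The first call was lost without mutant ovary 3 (2.13, limma adjusted p = 0.055), when the testes were not fitted (adjusted p = 0.0683) and with robust estimation of the spread (adjusted p = 0.061). Mutant ovary and testis differed by 0.02 ± 0.51 (n = 3 and 3, limma adjusted p = 0.979).

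Set array by array, the 2 wild-type ovaries differed in C7 by 2.55 (ovary 1 minus ovary 2), a 5.87-fold difference. Of all genes, 0.191% differed as far or farther, and 3.41% differed at least 2-fold. The other 7 members differed less than 2-fold between these ovaries, from -0.44 for C1qa to 0.37 for C1qc, with C4b at -0.31, Cfb at -0.21, Clu at 0.16, C6 at -0.16 and C1qb at 0.09. In sign, 4 of 8 members were higher in ovary 1, beside 52.8% of all genes. This is a comparison of single organs with no test. The oocyte and corpus luteum marker means also differed between them, and the endothelial mean was 7.35 in ovary 1 and 8.08 in ovary 2. The mean of the Leydig cell (steroidogenic) markers was higher in ovary 1, as C7 was, at 6.44 against 5.85. Their summed linear levels were 2163 and 579.3. In both ovaries 2 of the 3 measured markers lay at or under the median of all genes. Across the mutant ovaries the summed Leydig level was 2364, 2658 and 4541, highest in ovary 3 as for C7, and it was 1895 to 2348 in the testes. The Leydig mean was 6.72, 7.20 and 7.66 in mutant ovaries 1 to 3, below the testes at 8.72 to 9.04. At or under the median of all genes lay 2, 2 and 1 of the 3 markers in these mutant ovaries, and 0 in each testis. Of 3 measured Leydig markers 1 rose in the mutant ovaries, Hsd17b3 by 0.90, beside 9.55% of all genes higher. In testis 2 were higher than in wild-type ovary, beside 24.4% of all genes. Against testis 2 of the 3 were lower in the mutant ovaries, beside 24.3% of all genes, while C7 differed by 0.02. The part of these cells in the C7 values was not tested.

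Clu (probe set 10416057) was at 11.39 and 11.23 in the wild-type ovaries, 12.38, 12.28 and 12.35 in the mutant ovaries, and 11.03, 11.03 and 11.09 in the testes. The 3 groups did not overlap, and the mutant ovaries lay above both others. Clu rose in the mutant ovaries by 1.03 ± 0.08 (SE, n = 3 and 2, limma adjusted p = 1.67e-05) and was higher there than in testis by 1.29 ± 0.07 (n = 3 and 3, adjusted p = 6.24e-08). It stayed between 0.94 and 1.11 in the first comparison when any single array was left out. Testis was lower than wild-type ovary, at a difference of -0.26 ± 0.08 (n = 3 and 2, limma adjusted p = 0.0177), a call that was lost without wild-type ovary 1 (-0.18), testis 1 (-0.25) or testis 2 (-0.25), and without the intensity trend (limma adjusted p = 0.0656). Of 7 measured Sertoli cell markers 7 rose in the mutant ovaries, beside 9.55% of all genes higher. Their mean was 5.46 and 6.02 in wild-type ovaries, 8.86 to 9.07 in mutant ovaries and 6.81 to 6.90 in testes. The part of Sertoli cells in the Clu values was not tested.

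Other genes of the cascade were read from a list of 47, of which 44 were measured in the adult table. In mutant ovaries 5 of the 44 rose and 3 fell, 8 in all, beside 16.2% of all genes (9.55% higher, 6.66% lower). Of 14 classical and lectin pathway genes 2 rose: C1s1, a protease of the C1 complex, by 1.48 ± 0.15 (SE, limma adjusted p = 8.07e-05), and C1ra, the protease that activates it, by 1.18 ± 0.24 (adjusted p = 0.00843). C1s1 was at 7.26 and 7.17 in wild-type ovaries, 8.58, 8.75 and 8.76 in mutant ovaries and 4.58 to 4.96 in testes. Of 14 regulators 3 rose: Cd59a, which blocks the membrane attack complex, by 1.5 ± 0.23, Serping1, the C1 inhibitor, by 1.06 ± 0.14, and Cd59b by 0.66 ± 0.15. The regulators Susd4 and Csmd1, which carry complement control domains, fell by 1.40 and 1.03. Of 10 receptors and C1q-binding proteins Cd93, a C-type lectin-like protein of endothelium, fell by 1.24. None of 5 terminal genes passed, and Cfp, properdin of the alternative pathway, differed by 0.25 ± 0.15 (limma adjusted p = 0.317).

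C1s1, C1ra, Cd59a and Serping1 passed as higher without each ovary in turn and with the testes left out, and were the 4 genes called in that last fit. Without wild-type ovary 1 Susd4 and Csmd1 no longer passed (-0.64 and -0.46), and without wild-type ovary 2 Cd93 (-0.50) and Cd59b (0.58) did not. Susd4 was also lost without mutant ovary 2 or 3, and Cd59b with the testes left out. None of the 3 falls passed with the testes left out, and those of Cd93 and Csmd1 were lost without any 1 of the mutant ovaries. The genes for endothelium fell alongside Cd93 in 3 of 5 markers, beside 6.66% of all genes lower, and their part was not tested.

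**Figure D4:**
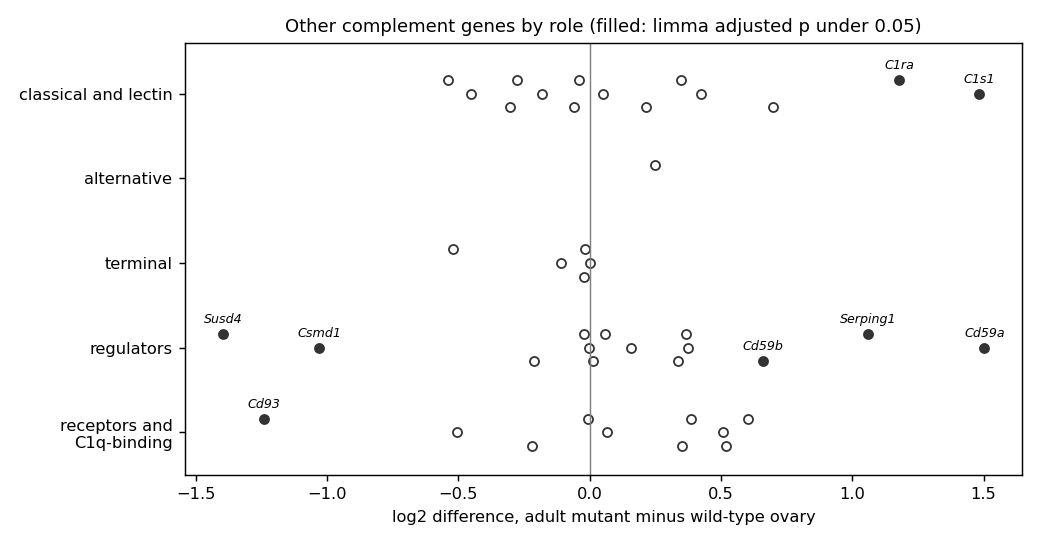
Log2 difference of mutant minus wild-type ovary (horizontal axis) for 44 other complement genes, grouped by role, with filled and named points where the limma adjusted p is under 0.05. C1s1, C1ra, Cd59a, Serping1 and Cd59b lie to the right, and Susd4, Cd93 and Csmd1 to the left.

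In testis, 23 of these 44 genes were lower and 6 higher than in wild-type ovary (limma), beside 35.9% and 24.4% of all genes. The largest differences toward ovary were those of Cd93 (-3.48), the lectin pathway protease Masp1 (-3.13), C1s1 (-2.39), Susd4 (-2.11) and Serping1 (-1.85). The genes higher in testis were led by Cd55b (5.50), a membrane regulator of C3 convertases, Cd46 (2.81), a membrane cofactor, Cpn1 (2.42), a carboxypeptidase that inactivates anaphylatoxins, C8g (1.66) and Cd59b (1.01). Cd55b was at 9.06 to 9.14 in the testes and at 3.38 to 3.78 in the 5 ovaries. Set against testis, the mutant ovaries were higher in 21 of the 44 and lower in 6, beside 37.5% and 24.3% of all genes. The 5 largest excesses were C1s1 (3.87), Serping1 (2.91), Masp1 (2.59), Cd93 (2.24) and C3ar1, the C3a receptor (2.05). The deficits were led by Cd55b (-5.52), Cd46 (-2.44), Cpn1 (-2.42), C8g (-1.77) and C8b (-0.87).

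The members did not vary as one unit. Over the 8 adult arrays C1qb and C1qc correlated at r = 0.98 and C1qa with them at 0.95 and 0.93, and within the 5 ovaries these values were 0.90, 0.49 and 0.52. C7 correlated with C1qa, C1qb and C1qc at -0.21, -0.17 and -0.06 over all 8 arrays. Within the 5 ovaries these values were 0.54, 0.60 and 0.81. These r values are descriptions, since arrays share their groups. Of the genes most like a member over the 8 arrays, Ly86, a myeloid surface protein gene, led for C1qb (r = 0.995), Plaat3 for C1qc (0.999), Vps26c for C1qa (0.998), Slc44a2 for Clu (0.999), Pcbp2 for C7 (0.98), Col4a1 for Cfb (0.99) and Chrna9 for C6 (0.955). Vcam1, an adhesion molecule gene, ranked 4 for C7 (0.96).

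At P3 no member passed in KO against wild-type ovaries, beside 0.324% of all genes called (0.137% higher, 0.187% lower). By unadjusted p under 0.05, 1 of 6 members (Cfb) and 9.53% of all genes passed, and the other P3 fits run called no member either. Cfb had signals of 84.6 and 61.2 in wild-type pools against 6.2 and 12.3 in KO pools. All 4 lay under the array medians, and the groups did not overlap. On the log2(signal + 16) scale, which understates changes of dim genes, the difference was -1.81 ± 0.38 (SE, n = 2 and 2, limma adjusted p = 0.144).

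Clu had P3 signals of 10051 and 12395 in wild-type pools against 7995 and 9815 in KO pools. Every KO pool lay below both wild-type pools, and the difference was -0.33 ± 0.16 (SE, n = 2 and 2, limma adjusted p = 0.617). Its 3 other probe sets differed by -0.30 to -0.43 and did not pass. The mean log2 level of 8 Sertoli markers was 7.99 and 7.69 in wild-type and 8.73 and 8.84 in KO pools. It was thus higher in both KO pools, where Clu was lower, and 0 of the 8 markers passed. The part of Sertoli cells in the P3 signals of Clu was not tested. C6 had signals of 241.5 and 237.4 in wild-type and 380.8 and 308.8 in KO pools, higher in both KO pools by 0.49 ± 0.24 (limma adjusted p = 0.616). In all, 3 of 6 members had groups that did not overlap, 1 higher and 2 lower, beside 38.9% of all genes (19.3% higher, 19.7% lower).

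The C1q chains overlapped between the P3 groups. C1qb had signals of 948.2 and 777.6 in wild-type and 1123 and 931.6 in KO pools, a difference of 0.25 ± 0.18 (SE, n = 2 and 2, limma adjusted p = 0.76), and its 2 other probe sets gave 0.08 and -0.07. C1qc had 193.0 and 47.5 in wild-type and 159.3 and 214.2 in KO pools (0.80 ± 0.58, limma adjusted p = 0.764), the low value being wild-type pool 2. C1qa had 13.6 and 7.1 in wild-type and 7.4 and 11.3 in KO pools, far under the array medians, and a difference was not detectable at this level. None of 14 macrophage markers passed at P3, and their mean log2 level was 8.00 to 8.16 in the 4 pools.

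**Figure D5:**
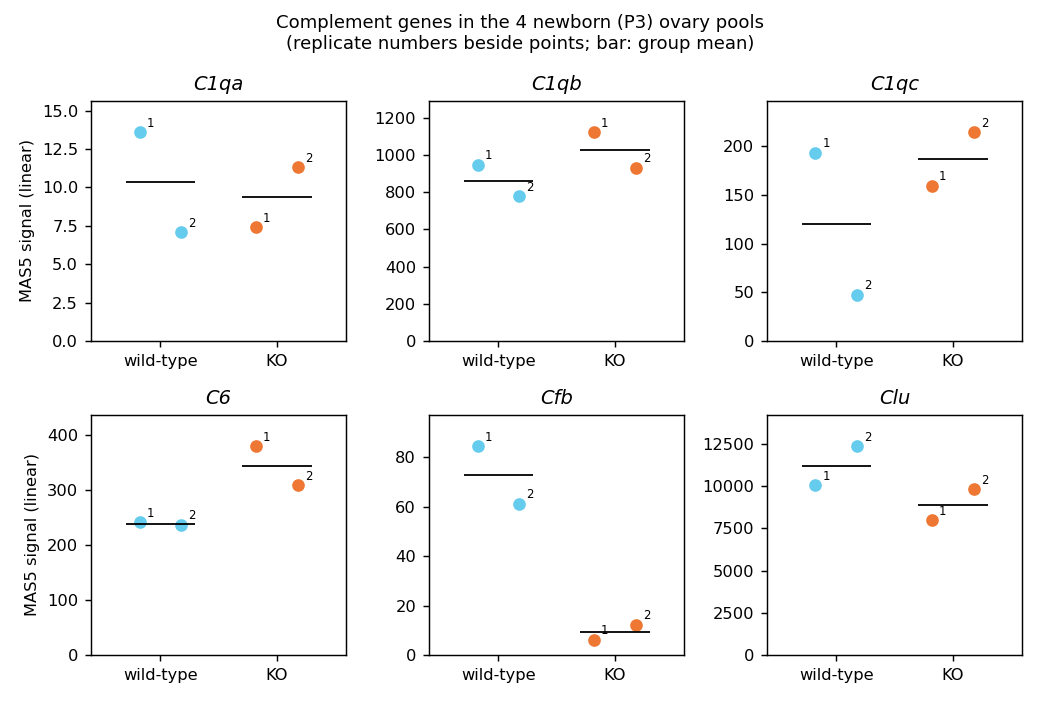
MAS5 signal (vertical axis, linear, own scale per panel) of the 6 measured complement genes in the 2 wild-type and 2 KO pools at P3, with replicate numbers and group means. Cfb and Clu are lower and C6 is higher in both KO pools, and the C1q panels overlap.

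Of 40 other complement genes measured at P3, 1 passed, beside 0.324% of all genes. Colec11, a collectin that recognises sugars for the lectin pathway, had signals of 2398 and 2772 in wild-type pools against 379.4 and 471.3 in KO pools. It fell by 2.56 ± 0.17 on the log2(signal + 16) scale (SE, n = 2 and 2, limma adjusted p = 0.00865). The call ended without either KO pool (limma adjusted p = 0.178 and 0.179) or wild-type pool 2 (0.066), without the intensity trend (0.15) and with the mean of its probe sets (-1.67, adjusted p = 0.0837). Without either KO pool or without the trend, 0 genes of the P3 table were called. In the adult table Colec11 was at 5.65 and 6.09 in wild-type and 5.41, 6.07 and 5.58 in mutant ovaries, which overlapped (-0.18 ± 0.22, limma adjusted p = 0.645). C1ra had 289.3 and 213.3 in wild-type against 612.0 and 525.7 in KO pools (1.14 ± 0.24, limma adjusted p = 0.144), a difference that did not pass. No test was made between the 2 ages, which differ in platform, labelling and pooling.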

How the data were processed

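Whole-gonad RNA was measured on 8 adult and 4 P3 arrays. For adults the authors deposited log2 levels; the submitters' processing notes name RMA and Affymetrix Expression Console. For P3 the authors deposited a linear intensity, with MAS5 named in the same notes, while the labels name a CodeLink protocol for labelling. The mean of each array after trimming 2% at each end was 500.003. Tool versions: not given in the sources used here. Probe sets were named from the platform annotation and updated by gene identifier through RefSeq (GRCm38.p6, for names, gene order and promoter sequences). Of 35557 adult probe sets 21789 had 1 gene, 1621 several and 12147 none listed; of 45101 at P3, 34958, 932 and 9211. The probe set with the highest mean over the table's arrays stood for a gene. Replicates are separate animals, and at P3 separate pools.

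All fits used limma 3.58.1 under R 4.3.3 (lmFit, eBayes with an intensity trend, two-sided). The 8 adult arrays were fitted together with 1 mean per group, and the P3 arrays alone as log2(signal + 16). The fit was tested on simulated data. The members and lists were chosen with earlier results of these data known. All members are named; of the other complement genes, up to 5 called per direction, and per member the genes with the highest Pearson r over the adult arrays. The alternatives were the samples fitted, each array left out, the probe set rule, the trend, robust estimation, quantile normalization, a filter on low genes, a 2-fold threshold, the pseudocount and the replicate block. An array was left out only for the comparisons that include its group. The counts of other complement genes and macrophage markers without single arrays, and the alternatives for Colec11 and single marker genes, were added after the values were seen.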

Additional observations from a re-analysis of the deposited data

Results flagged for a closer look

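Clu rose in the adult mutant ovaries, where every one lay above both wild-type ovaries (log2 difference 1.03). At P3 both KO pools lay below both wild-type pools (-0.33), which did not pass, and 38.9% of all genes had P3 groups that did not overlap. The difference between the ages was not tested. Groups of 2 or 3 arrays are too small for a test of single outlying samples.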

How the results depend on the processing

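In mutant against wild-type ovaries 2 members were called, and 1 (Clu) with the testes left out or with robust estimation, which ended the call of C7. Leaving out 1 mutant ovary at a time gave 2 to 3, and leaving out low genes gave 3, C1qc included. In testis against wild-type ovary the 6 calls ranged from 4 (2-fold required) to 6, in mutant ovary against testis the 5 calls from 4 to 6, and at P3 no fit called a member. Of the alternative counts of members, 53 stayed within 1.5 times the value reported. This takes 3 against 2 as within, and also 0 against 0, which is every P3 count. The cause of the other 2 was not tested. Signs turned in 7 single values, none of them called. With 1 array left out, C6 ranged from -0.13 to 0.029 (mutant against wild-type ovary) and from -0.027 to 0.13 (testis against wild-type ovary), and C7 from -0.29 to 0.22 (mutant ovary against testis). At P3, C1qa ranged from -0.23 to 0.13 and C1qc from -0.057 to 1.66, and C1qb by its dimmest probe set was -0.073. With the replicate block the counts were 2, 6, 6 and 0. The deviations of same-numbered arrays from their group means correlated at -0.003 to 0.079. In groups of 2 these deviations mirror each other, so both P3 pairs gave the same value (0.042). Whether the numbers pair the samples was not settled by these correlations. At P3 the block moved the calls over all genes from 25 higher and 34 lower to 153 and 152. The other complement genes called numbered 8, and 4 with the testes left out, and the macrophage markers 5, and 3 with the testes or wild-type ovary 2 left out. Without a trend no gene was called at P3. With the low genes left out C6 and Cfb could not be tested in adults, nor could C1qa, C1qc, C6 and Cfb at P3.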
